A study of Mus musculus with 14 samples.

Results

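The methylomes of reprogrammed mouse clones that lacked AID were compared with those of wildtype clones. The members were the cytosine positions on the autosomes that all 6 clone libraries listed, 1391459 positions of the 4226826 listed in any of the 10 methylation libraries of the series. After very deep positions were removed, 1388959 remained. They were summed into 113450 tiles of 1000 bp and into 12019 promoter windows of 11405 genes.

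DNA methylation was read by reduced representation bisulfite sequencing (RRBS), which cuts DNA at sites rich in CpG and reads each cytosine as methylated or converted. Tail fibroblasts, labelled either wildtype or AID-null, were reprogrammed by forced expression of Oct4, Sox2, Klf4 and cMyc. Clones were picked at 2 weeks and measured after 3 weeks, with 3 clones per genotype. Each genotype also had 1 library of the untreated fibroblasts and 1 of the whole culture at 3 weeks, which are given below as single values. All 6 clones carried the same 4 factors, and the AID-null clones differed by label in lacking AID. Mouse strain, age, the number of animals and whether clones of a genotype came from 1 animal were not stated, so a p-value here reflects only how much these clones varied, which may be technical. RNA of the clones was not analysed here.

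AID, activation-induced deaminase, converts cytosine to uracil. It is best known from B cells, where it starts somatic hypermutation and class switching of antibody genes. It has also been studied as a factor that could help remove methyl groups from DNA, since repair of a deaminated methylcytosine puts back an unmethylated cytosine. In reprogramming, methylated promoters of pluripotency genes must lose their marks, and those of some germline genes lose theirs too. CpG islands, the CpG-dense stretches at many promoters, normally stay nearly free of methylation in both fibroblasts and pluripotent cells.

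Clone libraries listed 1869857 to 2154007 positions at a median coverage of 98 to 125 reads. Summed over positions, 197850612 to 236823556 cytosine readings per clone entered the comparison. A read that spans several CpGs counts once at each, here and in the read counts of tiles and windows below. Wildtype clones listed 43 to 48 positions on Y and AID-null clones 555 to 648, and X took 2.17% to 2.25% of coverage in wildtype and 1.27% to 1.38% in AID-null clones. The genotype comparison was therefore also one of cells without and with Y sequence, and these cannot be told apart. In AID-null clone 1, chromosome 1 had 1.22 times the share of coverage of the median of the other clones. Mitochondrial positions, whose reads track incomplete conversion, read 0.129%, 0.123% and 0.0963% methylated in the wildtype clones, by number, and 0.135%, 0.141% and 0.143% in the AID-null ones. Reprogramming was visible at Pou5f1, which encodes Oct4. Its promoter read 48.7% and 41.2% in wildtype and AID-null fibroblasts and at most 0.506% in any clone. The macrophage list had 0 of 16 genes with a promoter window, so these cells could not be looked for. Of 32 fibroblast matrix and mesenchyme genes 9 had one, and the highest of their clone means was 15.7%.

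Promoters described CpG by CpG in the results are shown first. Gm52921, Traip and Kcnmb2 were called between the genotypes, while Slco4c1, Rabl3 and Tbx6 passed the adjusted p with smaller differences. Each sequence runs from 250 bases before to 50 bases after the transcription start, 5′ to 3′ along the gene, with capitals for the CpGs measured in all 6 clones. The sequences are RefSeq's, from a table on GRCm38.p6, and each was placed in the mm9 coordinates of the files by the spacing of its CpGs. For Tbx6, Gm52921 and Kcnmb2 the places of neighbouring promoters were needed as well. Slco4c1, an organic anion transporter gene, lies at chr1:98768699-98768998 on the minus strand. Rabl3, a gene of a small GTPase-like protein, lies at chr16:37539730-37540029 on the plus strand. Tbx6, a T-box transcription factor gene of the early mesoderm, lies at chr7:133924747-133925046 on the plus strand. Traip, a ubiquitin ligase gene of DNA damage responses, lies at chr9:107853044-107853343 on the plus strand. The predicted gene Gm52921 lies at chr6:134400845-134401144 on the plus strand. Kcnmb2, a potassium channel subunit gene, lies at chr3:31801375-31801674 on the plus strand.
Slco4c1: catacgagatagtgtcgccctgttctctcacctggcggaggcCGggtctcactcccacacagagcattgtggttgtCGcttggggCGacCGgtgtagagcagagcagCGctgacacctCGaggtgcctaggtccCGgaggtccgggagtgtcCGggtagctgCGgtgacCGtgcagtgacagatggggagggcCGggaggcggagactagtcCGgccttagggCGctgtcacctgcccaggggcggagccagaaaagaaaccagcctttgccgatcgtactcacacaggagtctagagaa
Rabl3: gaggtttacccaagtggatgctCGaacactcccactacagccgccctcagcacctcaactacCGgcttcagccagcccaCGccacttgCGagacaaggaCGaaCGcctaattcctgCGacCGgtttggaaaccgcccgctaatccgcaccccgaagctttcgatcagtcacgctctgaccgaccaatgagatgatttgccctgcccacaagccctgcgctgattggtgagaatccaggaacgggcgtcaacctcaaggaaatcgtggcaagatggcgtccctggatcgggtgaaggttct
Tbx6: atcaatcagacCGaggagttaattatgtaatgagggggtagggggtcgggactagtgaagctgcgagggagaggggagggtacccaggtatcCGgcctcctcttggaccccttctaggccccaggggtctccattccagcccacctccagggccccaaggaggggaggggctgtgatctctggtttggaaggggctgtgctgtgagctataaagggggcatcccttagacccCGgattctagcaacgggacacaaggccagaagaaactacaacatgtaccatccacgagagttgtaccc
Traip: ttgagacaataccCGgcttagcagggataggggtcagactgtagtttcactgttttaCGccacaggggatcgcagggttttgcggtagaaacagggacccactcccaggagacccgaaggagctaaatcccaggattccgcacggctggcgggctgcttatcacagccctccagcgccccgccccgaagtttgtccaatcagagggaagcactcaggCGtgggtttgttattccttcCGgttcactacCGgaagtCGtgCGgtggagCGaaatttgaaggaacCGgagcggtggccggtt
Gm52921: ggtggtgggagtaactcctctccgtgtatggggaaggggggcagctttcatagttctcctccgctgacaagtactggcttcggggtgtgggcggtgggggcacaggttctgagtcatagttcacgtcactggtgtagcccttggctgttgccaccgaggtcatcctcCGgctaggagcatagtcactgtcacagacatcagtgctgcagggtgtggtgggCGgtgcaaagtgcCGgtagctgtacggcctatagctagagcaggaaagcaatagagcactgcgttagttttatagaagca
Kcnmb2: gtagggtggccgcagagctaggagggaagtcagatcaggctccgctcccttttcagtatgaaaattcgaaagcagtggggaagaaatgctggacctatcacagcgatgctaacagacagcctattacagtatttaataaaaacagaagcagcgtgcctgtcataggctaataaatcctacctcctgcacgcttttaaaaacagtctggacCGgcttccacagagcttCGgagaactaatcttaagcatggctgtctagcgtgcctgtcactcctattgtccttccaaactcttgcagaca
The first 5 had lower methylation in AID-null than in wildtype clones, and Kcnmb2 had higher. They hold 21, 22, 7, 20, 11 and 9 CpGs in this order, of which 13, 8, 3, 9, 3 and 2 were measured in all 6 clones. The windows tested reached 500 bp beyond each end and held further CpGs.

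The clones of the genotypes did not overlap in their shares of positions at intermediate and at high methylation. Their means and their shares of positions under 10% did overlap. Averaged over positions, wildtype clones 1 to 3 read 25.04%, 26.0% and 26.3%. The AID-null clones, in the same way, read 26.7%, 24.3% and 30.6%. The AID-null clones lay on both sides of the wildtype clones, and the means of 25.8% ± 0.667 and 27.2% ± 3.17 (SD, n = 3 each) did not pass an exact two-sided permutation test (p = 0.7, where 0.1 is the smallest p that 3 against 3 can give). Positions of intermediate methylation, from 20% to under 80%, made up 30.7%, 28.7% and 30.5% of positions in wildtype clones. They made up 21.6%, 24.3% and 20.1% in AID-null clones, so the groups did not overlap. Positions at or above 80% made up 8.03%, 10.2% and 9.20% in wildtype clones. In AID-null clones they made up 15.3%, 11.4% and 20.1%, again with no overlap. These shares were not planned in advance, unlike the comparison of means. Each of the shares gave p = 0.1 by the exact permutation test, the smallest possible, and 0.35 after Benjamini-Hochberg adjustment over 7 level measures. Their differences were −8.00 and 6.47 points. Since the groups did not overlap, leaving out any clone could not change either sign.

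Fibroblasts of both genotypes held more positions at or above 80%, at 24.4% and 23.9%, than any clone. At 3 weeks the whole cultures stood at 2.81% (wildtype) and 10.4% (AID-null). Intermediate positions were 37.2% and 30.2% of these cultures, so the single cultures had the same order of genotypes as the clones. Positions under 10% methylation overlapped between the genotypes, at 57.95%, 57.8% and 56.9% in wildtype and 59.9%, 61.0% and 56.7% in AID-null clones.

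**Figure D1:**
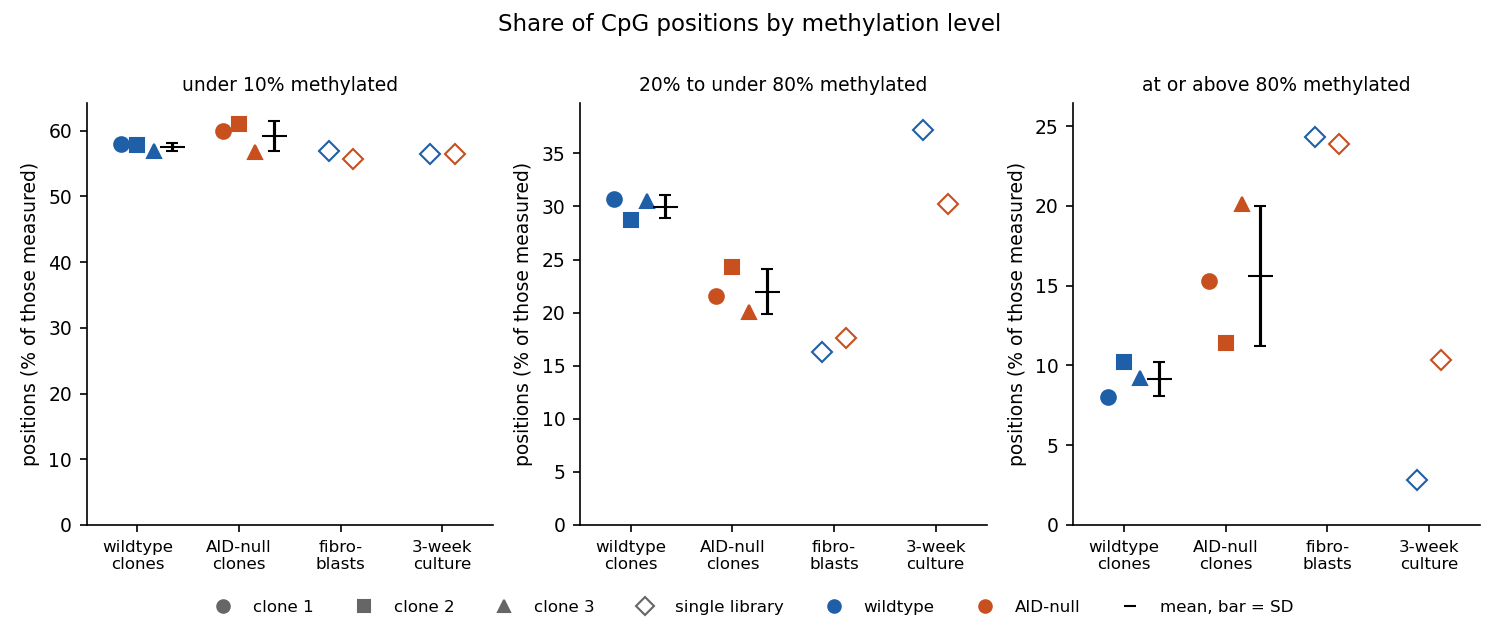
Share of CpG positions (y axis, % of positions measured) under 10%, from 20% to under 80%, and at or above 80% methylation, by group (x axis). Filled points are clones, black bars are mean and SD of 3 clones, open diamonds are single libraries. Wildtype clones hold 28.7% to 30.7% intermediate positions and AID-null clones 20.1% to 24.3%.

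By counts of tiles whose clones did not overlap, tiles with few CpGs were more often higher and tiles with many CpGs more often lower in AID-null clones. Tiles with fewer than 10 measured CpGs, 90124 in number, averaged 53.2%, 55.2% and 55.7% in wildtype and 57.2%, 52.2% and 65.4% in AID-null clones. All 3 AID-null clones lay above all 3 wildtype clones in 17.9% of these tiles and below them in 3.55%, against 15.2% and 5.97% of all tiles. In the 7995 tiles with 30 or more CpGs, a density typical of CpG islands, these counts ran the other way. They averaged 1.14%, 1.25% and 1.30% in wildtype and 0.756%, 0.663% and 1.18% in AID-null clones. Here all AID-null clones lay above all wildtype clones in 2.68% of tiles and below in 16.9%. The 15331 tiles between these classes had 5.48% above and 14.5% below. The difference of the class means did not pass the exact permutation test in any class, with p = 0.5, 0.7 and 0.2 from the sparsest class to the densest. The differences of the class means, 3.52, −0.783 and −0.360 points, did not all keep their sign: the sparse class was at −0.0622 without AID-null clone 3, the middle class at 0.493 without AID-null clone 2, and with 3 classes of equal size by CpG number the differences were 4.26, 2.81 and 0.00853 points. AID-null clone 3 was the highest of all clones in the sparse class and lay within the wildtype range in the dense class. The dense mean as a percent of the sparse mean was 2.13%, 2.25% and 2.33% in wildtype and 1.32%, 1.27% and 1.81% in AID-null clones, which did not overlap (p = 0.1, exact permutation). This ratio was chosen after the class means were seen. The dense tiles read 1.91% and 1.95% in wildtype and AID-null fibroblasts. Mitochondrial reads, given above, were no lower in AID-null clones than in wildtype clones. Whether incomplete conversion differed between the genotypes in dense tiles was not tested.

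**Figure D2:**
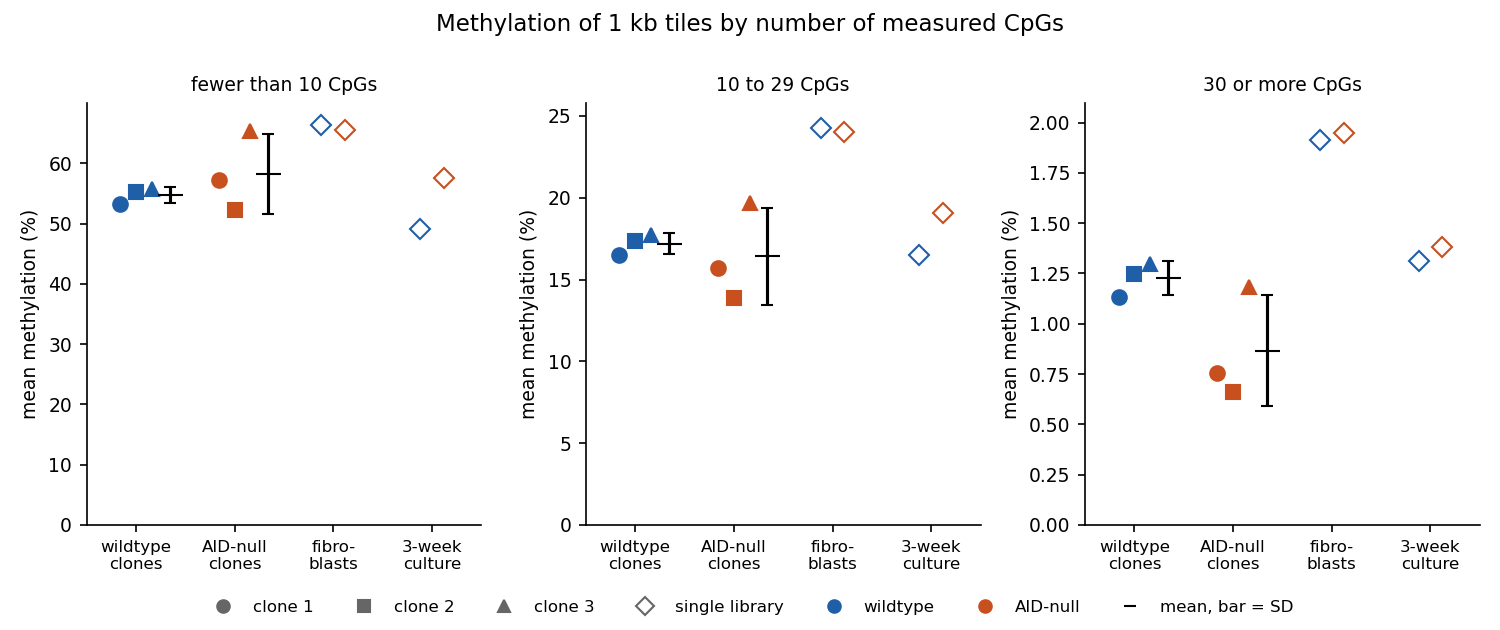
Mean methylation of 1 kb tiles (y axis, %, a separate scale in each panel) with fewer than 10, 10 to 29, and 30 or more measured CpGs, by group (x axis). Points are clones, black bars mean and SD of 3 clones, diamonds single libraries. In the densest tiles AID-null clones 1 and 2, at 0.756% and 0.663%, lie below all wildtype clones.

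Few single tiles passed the test of the genotypes. With a moderated quasi-binomial model, 6 tiles (0.00529% of tiles) were called higher and 2 (0.00176%) lower in AID-null clones, where a call took a p under 0.05 after Benjamini-Hochberg adjustment together with 25 points or more between the means. The tools limma on log2 ratios and edgeR called 0, with 15367 and 13979 tiles at an unadjusted p under 0.05 against 17728 in the model used. Without AID-null clone 3 the model called 462 tiles higher and 1843 lower.

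The called tile with the least spread, at chr4:152616001-152617000, read 42.9%, 36.8% and 37.6% in wildtype and 80.7%, 80.1% and 83.4% in AID-null clones (adjusted p = 0.0227). Fibroblasts of both genotypes were at 92.1% and 88.2% there, so the AID-null clones lay nearer the fibroblasts. Much the same order was seen at chr16:8560001-8561000, with 1.98%, 15.1% and 5.73% against 42.2%, 63.8% and 53.3%, and fibroblasts at 92.8% and 89.4%. At chr16:13752001-13753000, 1657 bp from the placed promoter of A930007A09Rik, wildtype clones read 29.7%, 10.4% and 21.1% and AID-null clones 71.3%, 57.6% and 70.2%. Fibroblasts read 92.9% and 93.3% there. The other 3 higher tiles lay at chr3:40928001-40929000, chr8:37536001-37537000 and chr11:84759001-84760000, with differences of 40.0, 36.3 and 31.4 points and fibroblasts between 16.7% and 52.6%. One of the 2 lower tiles held the 3 CpGs of Gm52921 and the other, at chr18:77793001-77794000, read 85.0%, 91.0% and 69.8% in wildtype and 18.5%, 24.2% and 43.9% in AID-null clones.

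Without the 25-point limit, 7 tiles (0.00617%) passed higher and 5 (0.00441%) lower, a count added after the data were seen. Among the lower ones were tiles nearly free of methylation in fibroblasts. The tile at chr19:55818001-55819000, 1701 bp from the placed promoter of Tcf7l2, a transcription factor gene of the Wnt pathway, read 15.2%, 15.8% and 20.1% in wildtype clones. AID-null clones read 2.36%, 3.23% and 2.95% there, and fibroblasts 0.260% and 0.359%. At chr5:144225001-144226000 wildtype clones read 4.03%, 6.79% and 6.57% and AID-null clones 0.328%, 0.434% and 0.821%. In every one of these sets the clones of the genotypes did not overlap.

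Many more tiles separated the genotypes by a wide margin without passing the test. All 3 AID-null clones lay above all wildtype clones with a mean difference of 25 points or more in 961 tiles (0.847%), and below in 393 (0.346%). The widest of these were thinly covered, such as chr7:105721001-105722000 with 3 positions and as few as 50 reads, at 0%, 29.6% and 16.3% in wildtype and 67.4%, 76.6% and 81.7% in AID-null clones. In the tile at chr2:169969001-169970000, 826 bp from the placed promoter of the zinc finger gene Zfp217, wildtype clones read 72.0%, 43.6% and 46.7% and all AID-null clones read 0%, with as few as 45 reads. Its adjusted p was 0.127.

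Promoters called between the genotypes numbered 9 of 12019 windows, 4 higher (0.0333%) and 5 lower (0.0416%) in AID-null clones by the same model and limits. The tool limma on log2 ratios called 0 promoters, with 1524 at an unadjusted p under 0.05 against 1874 in the model used. Without AID-null clone 3 the model called 6 higher and 59 lower, the 9 among them, and within the promoter sequences alone, without their 500 bp sides, 1 was called. Summed over positions, the 9 windows held 165 to 2585 readings per clone. The 95% Wilson interval on these sums is at most 6.201 points to either side, for counting error only. It takes each reading as independent, though 1 read can cover several CpGs, so the counting error may be wider. RRBS reads carry no molecular identifiers here. Counts of single CpGs below are made from the reads of windows named for their difference. They are therefore no separate support, and the share among all CpGs is not given.

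Lower in AID-null clones was first the predicted gene Gm52921, whose sequence is shown above. It read 72.3%, 74.5% and 76.2% in wildtype and 19.1%, 5.86% and 34.7% in AID-null clones, a difference of −54.4 ± 8.41 points (SE) with an adjusted p of 8.19e-06. All 3 of its CpGs, 83, 30 and 17 bases before the start, were lower in every AID-null clone than in every wildtype clone. Fibroblasts read 9.12% and 22.9%, so the wildtype clones stood far above the cells they came from. The predicted gene Gm41543 had a like pattern, with 47.6%, 51.2% and 50.2% in wildtype and 12.8%, 3.42% and 33.0% in AID-null clones and 11.0% and 21.1% in fibroblasts.

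Slc35c1 encodes the Golgi transporter of GDP-fucose. Its promoter 2 read 44.5%, 27.6% and 38.4% in wildtype and 1.47%, 1.29% and 10.5% in AID-null clones (adjusted p = 1.99e-05), against 0.412% and 0.989% in fibroblasts. The 8 measured CpGs of promoter 2 lay 141 to 388 bases after its start, and 0 of the 14 in its 300-base sequence were measured. The window of promoter 1, whose start lies less than 1000 bp away, also holds these CpGs, so it is not a separate measurement. That window had an adjusted p of 0.00273 at 4.37%, 6.24% and 5.88% against 0.407%, 0.392% and 1.81%. Traip read 26.5%, 52.8% and 34.8% in wildtype and 6.24%, 8.60% and 19.6% in AID-null clones, and 15.6% and 16.8% in fibroblasts. At its 5 CpGs from 2 bases before to 33 bases after the start the AID-null mean was 2.07% to 7.72% and the wildtype mean 22.8% to 40.4%. Fbxo40, a muscle F-box gene, was the only one of the 5 that was also high in fibroblasts, at 72.2% and 67.4%. Its wildtype clones read 52.6%, 57.0% and 66.6% and its AID-null clones 26.3%, 6.53% and 51.7%, with the third only just below the lowest wildtype clone.

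Higher in AID-null clones was Kcnmb2, a regulatory subunit gene of calcium-activated potassium channels, with 11.7%, 15.9% and 27.7% in wildtype and 78.8%, 57.5% and 77.1% in AID-null clones (adjusted p = 0.00233). Fibroblasts read 0% and 2.68%, so both genotypes stood above them. Only 3 of its CpGs were measured, 40 bases before to 139 bases after the start, and all 3 were higher in every AID-null clone. Gm8493 read 11.1%, 11.9% and 19.24% against 44.9%, 45.5% and 48.6%, and 90.7% and 85.1% in fibroblasts. Gm51681 and promoter 1 of Fam53b also lay nearer to fibroblasts in AID-null clones. Fam53b stood at 43.2%, 58.5% and 53.5% in wildtype clones, 79.4%, 78.5% and 78.7% in AID-null clones and 89.3% and 83.2% in fibroblasts.

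**Figure D3:**
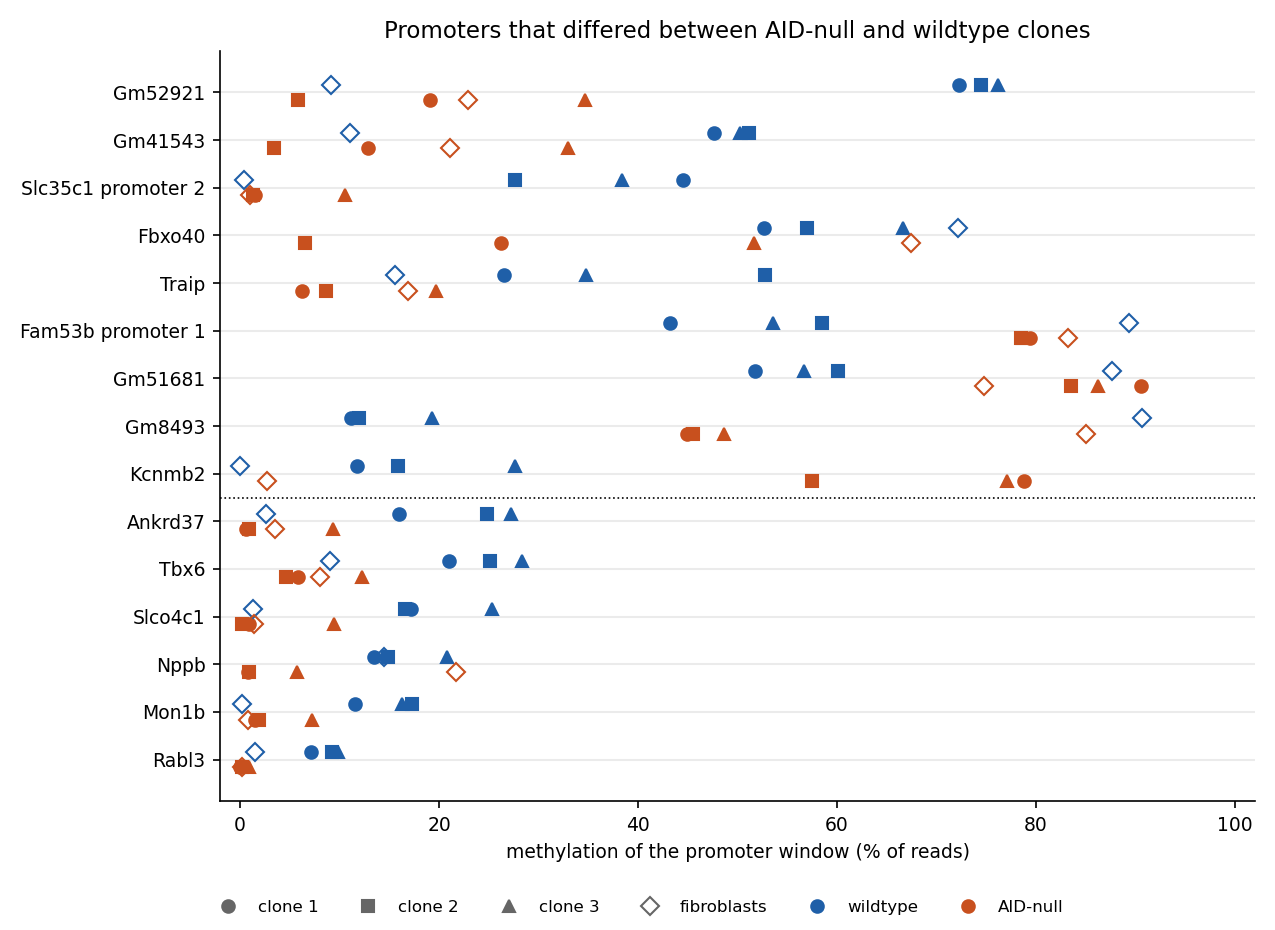
Methylation of promoter windows (x axis, % of reads) in each wildtype (blue) and AID-null (orange) clone, with fibroblasts as open diamonds. Above the dotted line are the 9 called promoters, below it 6 that passed the adjusted p with a difference under 25 points. Wildtype clones of Gm52921 sit between 72.3% and 76.2%, far from all other libraries.

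Small differences were mostly toward lower methylation in AID-null clones. With the adjusted p alone, a count added after the data were seen, 85 promoters (0.707%) were lower and 6 (0.0499%) higher in AID-null clones. The limma fit on log2 ratios left 0 of either at an adjusted p under 0.05. Of the 85, 71 were under 5% in both fibroblast libraries, near the share of 10278 among all 12019 windows, and in 83 all AID-null clones lay below all wildtype clones. Their median clone mean was 4.03% in wildtype and 0.739% in AID-null clones, with differences from −0.443 to −54.4 points. The direction was shared by promoters at large. Over all 12019 windows 8064 were lower on average and 3916 higher, with a median difference of −0.0775 points, and 14.5% had every AID-null clone below every wildtype clone against 3.31% above. Left without AID-null clone 3, the model gave 1504 lower (12.5%) and 59 higher (0.491%).

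The genes in the next 3 paragraphs were picked from the 91 promoters after their values were seen, and each had an adjusted p under 0.05. Their single CpGs hold the same reads, so CpGs without overlap between the genotypes are no separate support. Slco4c1 read 17.1%, 16.6% and 25.3% in wildtype and 0.850%, 0.177% and 9.39% in AID-null clones, and 1.25% and 1.38% in fibroblasts. Across its 21 measured CpGs, from 208 bases before to 276 bases after the start, the wildtype mean ran from 6.54% to 60.7% and the AID-null mean from 0% to 13.1%. In 10 of them every AID-null clone was below every wildtype clone. AID-null clone 3 reached 39.2% and 38.0% at the CpGs 38 and 27 bases before the start, as high as the highest wildtype clone, and was near 0% at those 97 and 122 bases after it. Slco4c1 is on chromosome 1, whose coverage was high in AID-null clone 1.

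Rabl3 and Gtf2e1, a subunit gene of the general transcription factor TFIIE, start 96 bases apart and share all 40 measured positions, so they are 1 measurement. They read 7.17%, 9.25% and 9.84% in wildtype and 0.0133%, 0.190% and 0.891% in AID-null clones (adjusted p = 2.12e-06), and 1.48% and 0.145% in fibroblasts. In 25 of 26 CpGs all AID-null clones lay below all wildtype clones, with the wildtype mean between 2.79% and 13.8% and the AID-null mean at most 1.25%. Tbx6 read 21.04%, 25.1% and 28.3% against 5.86%, 4.59% and 12.3%, with fibroblasts at 9.07% and 8.06%. The gap was widest 272 bases before its start, at 26.8%, 47.7% and 64.6% against 8.12%, 0% and 8.49%. At the CpG 18 bases before the start the genotypes overlapped.

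**Figure D4:**
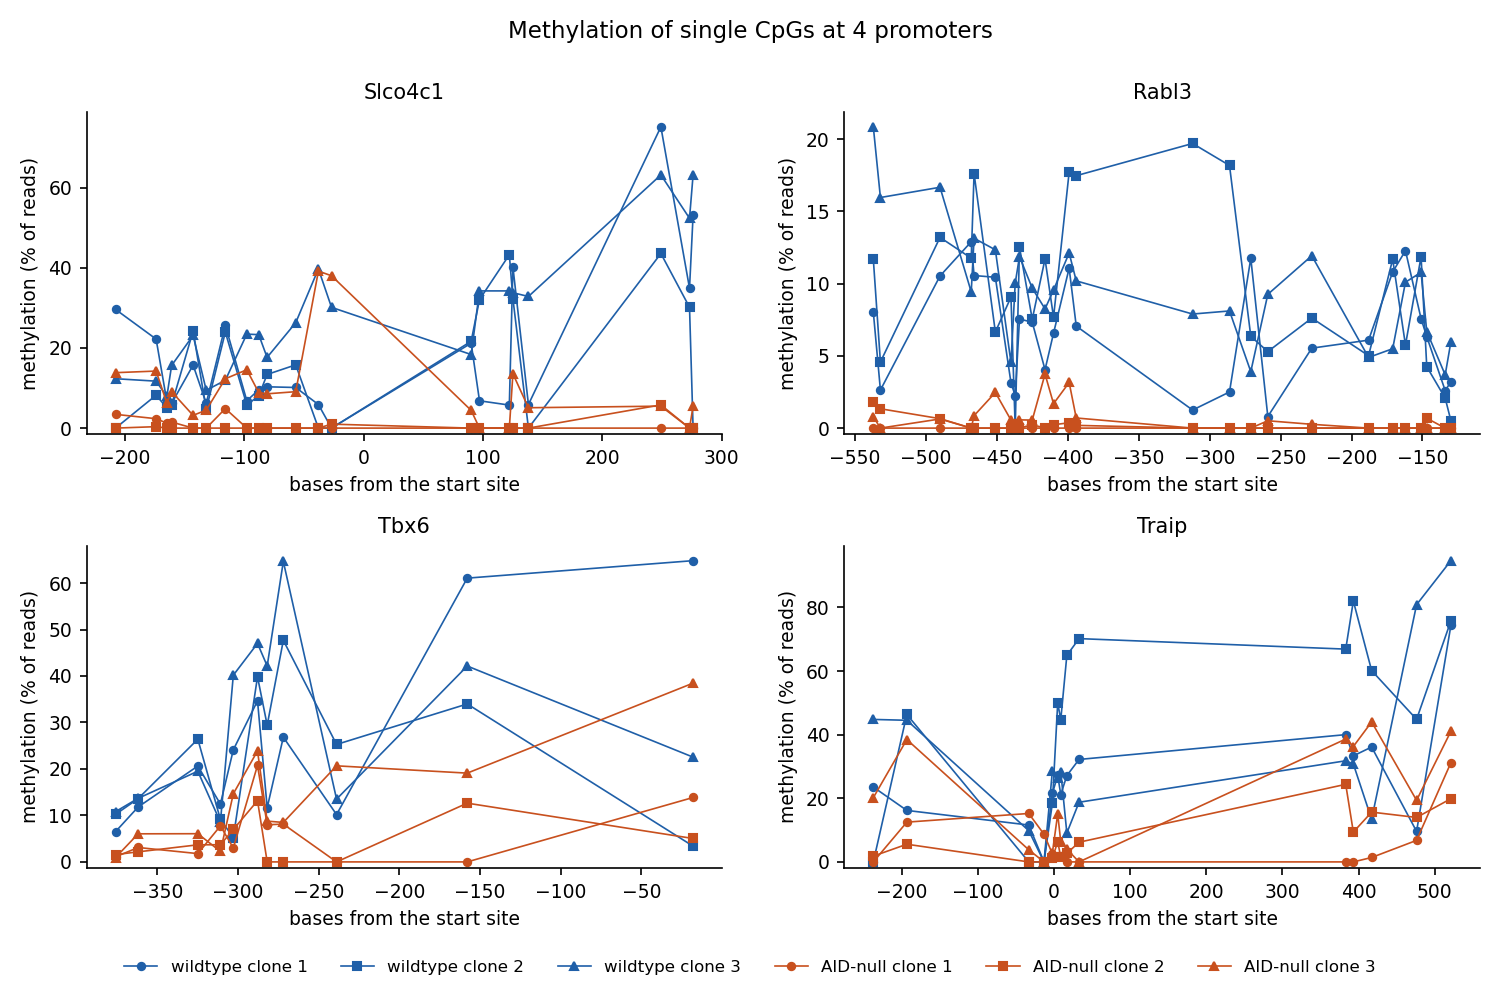
Methylation of single CpGs (y axis, % of reads) against distance from the transcription start (x axis, bases) at Slco4c1, Rabl3, Tbx6 and Traip in each clone, wildtype in blue and AID-null in orange. At Rabl3, AID-null clones stay at or under 3.74% across the 26 CpGs. At Slco4c1, AID-null clone 3 reaches 39.2% and 38.0% just before the start and lies within the wildtype range at further CpGs, such as 13.8% at 208 bases before the start.

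Several genes of this kind are expressed in most cells. Ankrd37, an ankyrin repeat gene induced in low oxygen, read 16.01%, 24.8% and 27.2% in wildtype and 0.543%, 0.908% and 9.29% in AID-null clones. Mon1b, a gene of endosome maturation, read 11.5%, 17.3% and 16.3% against 1.52%, 1.89% and 7.21%. Ufsp2, a protease gene of the UFM1 pathway, shares its window with 1700029J07Rik and read 12.6%, 14.2% and 24.4% against 0.246%, 0.555% and 7.00%. Mocs2, needed for molybdenum cofactor, and Ercc6, a gene of transcription-coupled DNA repair, were at 4.68% to 9.22% in wildtype and 0.281% to 2.54% in AID-null clones. In all 5 the third AID-null clone was the highest of its genotype and lay below every wildtype clone. Nppb, which encodes a natriuretic peptide, and Ush1c, a scaffold gene of hair cells, were methylated in fibroblasts too, at 14.4% to 21.7% and 21.6% to 40.4%. Nppb read 13.5%, 14.9% and 20.8% against 0.748%, 0.935% and 5.67%. Among the 6 higher promoters, Mkrn3 and Tmed10 were the ones not called before. Mkrn3, an imprinted gene, read 31.7% and 33.3% in fibroblasts, 0.0557%, 0.194% and 0.128% in wildtype and 1.58%, 0.0960% and 1.79% in AID-null clones. Tmed10 rested on AID-null clone 3 alone, at 2.61% against at most 0.0290% in the rest.

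RNA of the whole cultures at 3 weeks, 1 library per genotype and no clone among them, gives the level of these genes in a related population. In FPKM, fragments per kilobase of transcript scaled to library depth, Ankrd37 stood at 31.1 for wildtype and 129.9 for AID-null cells. Nppb ran the other way, at 95.3 and 27.5 FPKM. Rabl3 was at 25.04 and 25.5 FPKM, Slco4c1 at 3.93 and 4.23 FPKM and Traip at 20.9 and 18.9 FPKM, where the cultures lay close together. Kcnmb2 and Fbxo40 were at or under 0.62 FPKM in both.

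Gains over fibroblasts were then counted promoter by promoter, a count not planned in advance. Of 10278 promoters under 5% in both fibroblast libraries, 154, 182 and 187 read at least 10% in wildtype clones 1 to 3. The AID-null clones had 69, 61 and 159 such promoters, so clones 1 and 2 were low and clone 3 lay within the wildtype range (p = 0.2, exact permutation). At a level of 5% the counts were 422, 472 and 510 against 192, 176 and 411, which did not overlap (p = 0.1, exact permutation). At 20% they were 39, 48 and 63 against 22, 17 and 56 (p = 0.3, exact permutation). The whole cultures at 3 weeks had 99 and 85 promoters at 10% or more. All 3 wildtype clones read at least 10% in 118 promoters and all 3 AID-null clones in 48, and 42 promoters were in both sets.

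Promoters methylated in fibroblasts did not separate the genotypes. The 666 promoters above 50% in both fibroblast libraries averaged 50.6%, 52.8% and 53.3% in wildtype and 51.1%, 45.5% and 62.0% in AID-null clones (p = 0.9, exact permutation). Their fibroblast averages were 78.3% and 77.1%. The 3-week cultures stood at 49.9% and 58.2%.

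Most germline gene promoters with a window were methylated in fibroblasts, and the list average was lower in every clone. Some members kept much of their methylation, such as Dpep3 at 82.2% and Tdrd9 at 71.1% in the wildtype clone mean. Of 32 genes in the list 21 had a window, and 17 of them were lower on average in AID-null clones, with a median difference of −6.62 points against −0.0775 over all promoters. With all clones 0 passed the quasi-binomial test, with 4 at an unadjusted p under 0.05, all 4 lower, and 0 passed with limma. In AID-null clones 1 and 2 alone, 13 of 21 passed the adjusted p lower and 0 higher, against 12.5% of all promoters lower, a count that leaves out AID-null clone 3. All promoters are an unlike background for both values, since 9152 of 12019 were under 2% in the means of both genotypes, against 0 of these 21. The 666 promoters above 50% in both fibroblast libraries differed by 0.615 points in their mean level, AID-null minus wildtype. The list averaged 81.8% and 81.6% in fibroblasts and 47.6% and 45.3% in the 3-week cultures. Clone averages were 40.2%, 41.7% and 45.2% in wildtype and 32.5%, 30.9% and 47.8% in AID-null clones. AID-null clone 3 was thus the most methylated clone on this list and clones 1 and 2 the least.

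Dazl, an RNA-binding protein gene of germ cells, read 43.5%, 51.8% and 44.3% in wildtype and 24.8%, 21.4% and 50.1% in AID-null clones. Tex19.1, a gene that restrains retrotransposons in germ cells, read 34.3%, 42.6% and 45.7% against 17.4%, 9.61% and 51.2%. Tuba3a, a testis tubulin gene, read 56.1%, 47.4% and 56.0% against 32.4%, 24.4% and 55.5%. In these 3 the first 2 AID-null clones were the lowest of the 6, and the third was close to the wildtype clones. All AID-null clones lay below all wildtype clones in 3 of 21 (14.3%), about the share of 14.5% among all promoters, namely Ddx4, Tdrd1 and Stag3. Ddx4, the RNA helicase gene also called Vasa, read 19.5%, 24.1% and 28.4% against 11.4%, 11.5% and 18.8%, and 91.2% and 89.4% in fibroblasts. Its promoter, at chr13:113442469-113442768 on the minus strand, is shown because it is the densest of these in CpGs, with 28 of 38 measured (capitals).
Ddx4: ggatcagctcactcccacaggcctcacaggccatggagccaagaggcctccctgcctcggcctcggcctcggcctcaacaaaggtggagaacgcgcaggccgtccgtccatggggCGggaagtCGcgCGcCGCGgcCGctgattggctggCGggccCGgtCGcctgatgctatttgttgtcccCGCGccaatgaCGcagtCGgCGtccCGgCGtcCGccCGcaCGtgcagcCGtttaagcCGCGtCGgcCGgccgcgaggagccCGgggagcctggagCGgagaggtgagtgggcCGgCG
Of its 36 measured CpGs, from 253 bases before to 147 bases after the start, 9 had all AID-null clones below all wildtype clones and 0 above. Dazl went both ways, with 7 of its 45 measured CpGs below and 3 above in this sense. Tdrd1, a Tudor domain gene of the piRNA pathway, read 29.2%, 31.5% and 35.8% against 16.6%, 17.1% and 29.1%. Stag3, a meiotic cohesin gene, read 3.79%, 5.65% and 3.71% against 0.0399%, 1.08% and 3.44%, and was already low in fibroblasts. Brdt, a bromodomain gene of the testis, was the single member with all AID-null clones higher, against 3.31% of all promoters, at 72.1%, 76.2% and 74.1% against 92.2%, 85.5% and 81.7%. Rpl10l, a ribosomal protein gene of the testis, read 94.9% and 95.2% in fibroblasts, 3.01%, 5.15% and 16.1% in wildtype clones and 9.32%, 6.76% and 39.6% in AID-null clones.

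**Figure D5:**
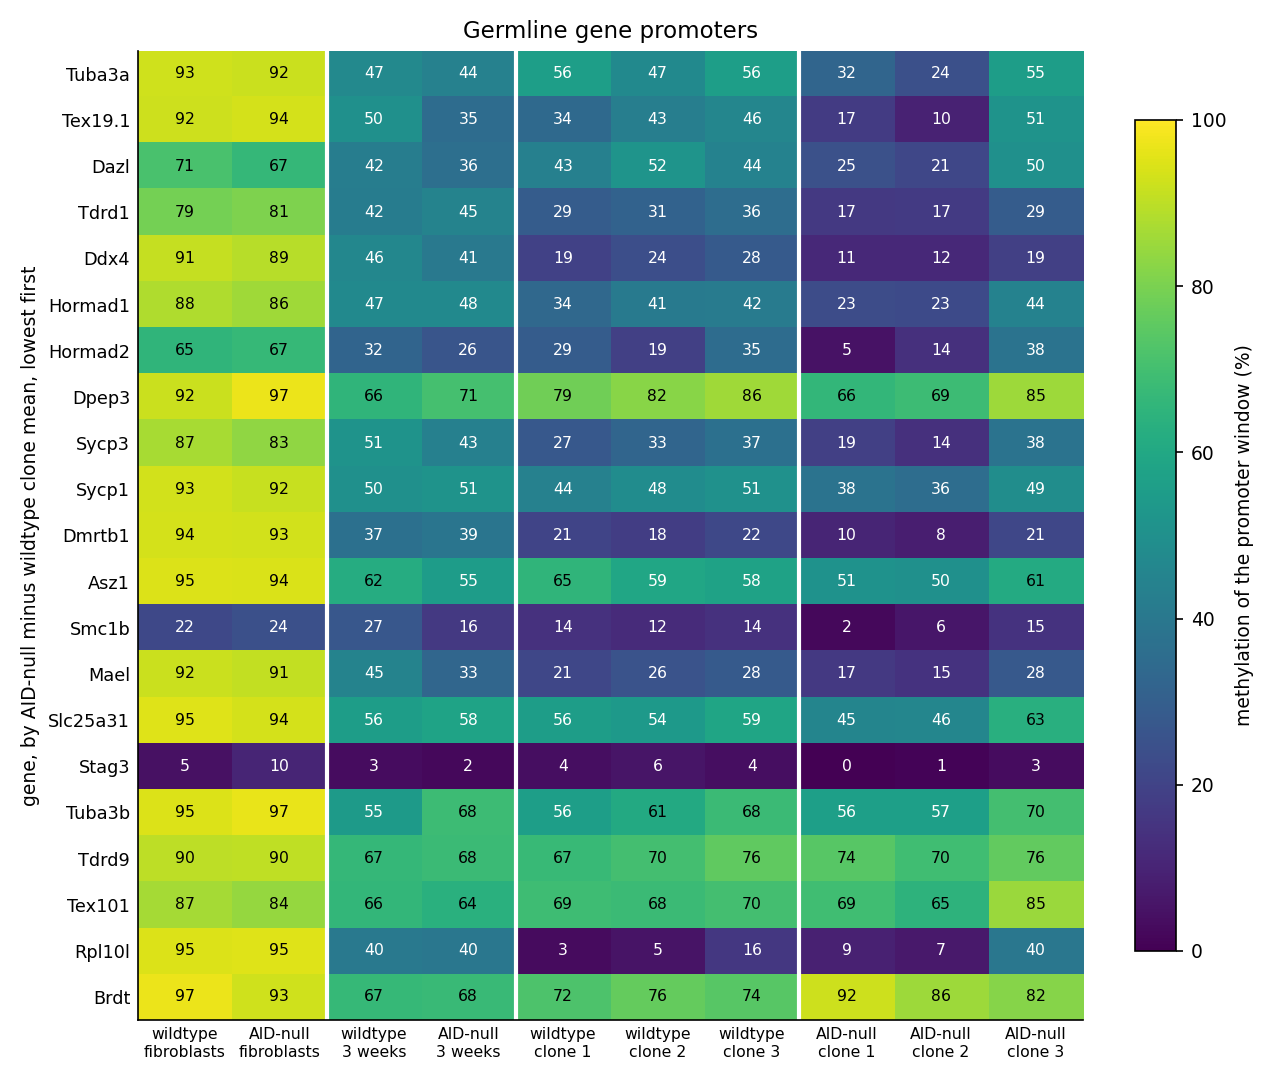
Methylation (colour and printed number, % of reads) of 21 germline gene promoters (rows, by the difference of the clone means) in fibroblasts, 3-week cultures and clones (columns). AID-null clones 1 and 2 average 32.5% and 30.9%, below the other clones, and AID-null clone 3 averages 47.8%.

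Most pluripotency promoters with a window were low in methylation in the clones of both genotypes. Nanog, Dppa3, Dppa5a, Zfp42 and Tdh had no window. Pou5f1 read 0.218%, 0% and 0% in wildtype and 0.176%, 0% and 0.506% in AID-null clones, while the 3-week cultures still held 7.85% and 20.3%. Sox2 and Klf4, further factors of the network, were at most 0.803% in any clone and at most 1.20% in fibroblasts. Of 50 secondary pluripotency genes 24 had a window, 26 windows in all, and 21 of these were under 2% in the means of both genotypes. Many were already low before reprogramming, with list medians of 2.12% and 1.76% in wildtype and AID-null fibroblasts. By the quasi-binomial test and by limma 0 passed, with 6 at an unadjusted p under 0.05 in the former. In AID-null clones 17 were lower and 9 higher on average, with a median difference of −0.154 points. Tdgf1, a co-receptor gene of Nodal signalling, was set apart by 1 clone. It read 46.8% and 45.1% in fibroblasts, 0% in 5 clones and 9.04% in AID-null clone 3. Tcl1, a cofactor gene of the Akt kinase, read 90.6% and 88.8% in fibroblasts, 5.71%, 8.47% and 14.2% in wildtype and 3.75%, 0.527% and 5.56% in AID-null clones. Lin28b, an RNA-binding protein gene that blocks let-7, was low in fibroblasts, at 2.95% and 2.43%, and read 8.55%, 13.8% and 12.1% in wildtype and 1.21%, 2.23% and 7.71% in AID-null clones (adjusted p = 0.173). Esrrb, a nuclear receptor gene, was methylated at this window, at 80.1%, 75.7% and 68.3% against 61.9%, 63.9% and 74.4%.

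Imprinted promoters were far below their fibroblast level at some genes and near it at others. Of 26 genes in the list of loci with a maternal mark 12 had a window, 14 windows in all, and 0 passed the quasi-binomial test or limma, with 1 at an unadjusted p under 0.05 in the former. On average 9 were lower and 5 higher, with a median difference of −0.110 points. Peg12 read 21.8% and 27.8% in fibroblasts and at most 1.01% in any clone. Igf2r, the receptor gene that clears IGF2, read 30.4% and 37.8% in fibroblasts, 2.37% to 3.47% in wildtype and 0.441% to 2.63% in AID-null clones. Promoter 1 of Gnas, the locus of the stimulatory G protein subunit, stood at 39.0% and 43.7% in fibroblasts, 3.73%, 4.07% and 7.05% in wildtype and 1.03%, 1.81% and 8.34% in AID-null clones. Others were closer to their fibroblast level. Plagl1, a zinc finger gene, read 38.4% and 45.2% in fibroblasts, 28.4%, 20.8% and 25.4% in wildtype and 34.4%, 29.8% and 22.1% in AID-null clones. Nnat, a small membrane protein gene, and Zrsr1, a splicing factor gene, lay between 19.6% and 35.3% in all 6 clones. Nap1l5 varied most, from 25.8% to 51.3% among AID-null clones. Mest, an imprinted hydrolase gene, lay between these patterns, at 67.4% and 61.9% in fibroblasts and 15.99% to 22.0% in the clones. Of 8 genes of paternally marked loci 3 had a window, and Meg3, a non-coding RNA gene, read 64.2%, 55.3% and 50.2% in wildtype and 77.5%, 59.0% and 57.1% in AID-null clones.

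Developmental and epithelial lists had few members past the test. Their windows are read against all promoters, of which 8064 of 12019 were lower on average in AID-null clones. Of 16 epithelial genes measured, 14 were lower on average and 2 passed the adjusted p, both lower, against 0.707% of all promoters. These were Cldn7, a tight junction claudin gene, at 4.79%, 3.21% and 3.37% in wildtype and 0.461%, 0.236% and 1.56% in AID-null clones, and Lsr, a gene of tricellular junctions, at 2.46%, 2.32% and 4.14% against 0.144%, 0.437% and 1.64%. Of 15 mesenchymal transcription factor genes 1 passed, En1, a homeobox gene of limb and midbrain, at 7.97%, 10.2% and 9.27% against 3.25%, 1.62% and 2.33%. Neural genes had 15 of 18 windows lower on average and 6 with all AID-null clones below all wildtype clones, against 14.5% of all windows, among them the homeobox gene Dbx1 at 10.7%, 12.3% and 13.0% against 4.97%, 5.29% and 6.599%. All 11 windows of primitive endoderm and trophoblast genes were lower on average, and 3 had all AID-null clones below all wildtype clones. Hnf4a, a liver and endoderm receptor gene, read 45.5%, 59.7% and 56.1% in wildtype and 22.6%, 17.1% and 51.5% in AID-null clones there. Hox genes had 11 of 16 lower, and Hoxa7 read 41.2%, 36.2% and 48.7% against 21.4%, 15.2% and 26.1%, in a window of 4 positions with an adjusted p of 0.336. Primed and mesendoderm genes had 11 of 12 windows lower and 0 past the quasi-binomial test or limma, with 2 at an unadjusted p under 0.05 in the former. Muscle genes, with 5 windows, had 2 with all AID-null clones higher, against 3.31% of all promoters. One was the skeletal actin gene Acta1, at 38.3%, 39.7% and 45.1% against 47.2%, 49.0% and 58.6%. All promoters are an unlike background here. The muscle list averaged 33.8% to 44.0% in the clones, while 9152 of 12019 promoters were under 2% in the means of both genotypes.

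Genes that write, read or remove DNA methylation had 21 windows of 19 genes, 9 lower and 12 higher on average. By the quasi-binomial test or limma 0 passed, with 2 at an unadjusted p under 0.05 in the former. Of these 18 were under 2% in the means of both genotypes. Uhrf2, a hemimethylation-binding ubiquitin ligase gene, read 6.497%, 9.59% and 8.21% in wildtype and 1.73%, 1.82% and 6.15% in AID-null clones (adjusted p = 0.136). All 17 housekeeping genes measured were under 2% in both means.

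All pairs of wildtype clones, at 7.00 to 7.66 points, and AID-null clones 1 and 2 lay closer together than any pair across the genotypes, at 9.02 to 11.6 points, whereas AID-null clone 3 lay 9.25 and 12.4 points from the other AID-null clones. The mean absolute difference over tiles was 7.26 points among wildtype clones, 9.50 points among AID-null clones and 9.84 points between the genotypes. Distances between genotypes exceeded those within by 1.46 points (p = 0.1, exact permutation over the clones). By Pearson correlation across the same tiles the genotypes did not separate. It was 0.925 to 0.939 among wildtype clones, 0.935 to 0.962 among AID-null clones and 0.903 to 0.951 between the genotypes. The highest value between the genotypes was that of wildtype clone 3 with AID-null clone 3. The closest pair of all was AID-null clones 1 and 2, at 6.91 points, and the farthest AID-null clones 2 and 3, at 12.4 points. Tiles with a range of 25 points or more numbered 10344 (9.12%) among wildtype clones and 19422 (17.1%) among AID-null clones, and promoters 89 and 278. Pairs of wildtype clones differed by that much in 3.76% to 5.02% of tiles, and AID-null clones 2 and 3 in 13.8%.

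AID-null clone 3 stood out upward, with 1334 tiles at least 20 points above every other clone and 22 below. Psd4, an exchange factor gene for ARF proteins, gave an example at its promoter 2, with 56.9% in that clone and 6.53% to 21.1% in the others. AID-null clone 2 stood out downward, with 905 tiles at least 20 points below all others and 27 above. Mst1, a gene of a liver growth factor, read 2.07% in it and 34.3% to 65.9% in the others. Wildtype clones 1 and 2 had 910 and 868 such low tiles. Low outlying tiles were thus found in clones of both genotypes.

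The tiles by which the 3-week cultures differed were then looked up in the clones. In 2741 tiles the AID-null culture was at least 25 points above the wildtype culture, at means of 76.2% and 46.5%. Wildtype clones averaged 59.1%, 61.5% and 61.7% in these tiles and AID-null clones 64.7%, 59.1% and 74.1% (p = 0.3, exact permutation). All AID-null clones lay above all wildtype clones in 18.9% of them, against 15.2% of all tiles. The clone means of the genotypes differed by 5.22 points there. In the 83 tiles at least 25 points lower in the AID-null culture the clone means differed by −1.65 points (p = 0.9, exact permutation), with all AID-null clones below in 3.61% and above in 4.82%.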

How the data were processed

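The clone libraries were RRBS libraries of genomic DNA, 3 per genotype, grouped by their titles. Per the submitters' processing notes, methylKit, Bismark and the mouse build mm9 were used, and their versions are not given in the sources used here. For each CpG cytosine, per the file headers, the deposited tables hold the coverage as a read count and a percent for methylated and for converted reads. No position listed had fewer than 10 reads. FPKM values of the 3-week cultures were normalised and deposited by the authors, and their depth is unknown. Coverage times percent gave the number of methylated and of converted reads. Between 1.81% and 4.46% of positions had percents that left some reads unassigned, and those reads were not used. A position was dropped where any clone exceeded its 99.9th percentile, at 683 to 757 reads by clone.

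The counts were added up within 1000 bp tiles and over promoter windows with at least 3 positions listed in all 6 clones. No genome of build mm9 was used here, so exon, intron and UTR status is not given. RefSeq promoter sequences from GRCm38.p6 were instead placed in mm9 by matching the spacing of their CpGs to listed positions (at least 8 CpGs and a unique match on the chromosome, or at least 3 CpGs within 200 bp of where both neighbouring matches put it). Of 31396 promoters 14416 were placed. Reversed sequences, which should not match, were placed in 0.702% and 0.559% of tries by the 2 ways. Promoters on chromosome 18 were not used here, and the window of a promoter reaches 500 bp beyond each end of its 300 bases.

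Genotypes were compared by a quasi-binomial model per tile or window in R 4.3.3, its dispersion moderated with limma 3.58.1 (trend on binomial information, floor of 1) and p-values adjusted by Benjamini-Hochberg over all tiles or windows. A call needed an adjusted p under 0.05 and 25 points. The model was tested on simulated data, in which features of similar methylation had the same spread and no clone stood out. Such data cannot show how the model behaves with a clone such as AID-null clone 3. Single values were compared by exact two-sided permutation in SciPy 1.17.1, with Python 3.11.15, and edgeR 4.0.16 was an alternative for tiles. Other alternatives were limma on log2 ratios with 2 reads added, a coverage of at least 30, no upper limit, 500 bp tiles, the promoter sequence alone, leaving out chromosome 1 or 1 clone, and clone number as a block. Named genes were those called, the 10 of largest difference each way without overlap, up to 4 per gene list and up to 5 of largest spread per genotype, plus core pluripotency, reprogramming factor and imprinted genes. Genes named by adjusted p alone, and germline genes beyond 4, were chosen after their values were seen. The members and the 17 gene lists were chosen with earlier results of these data known.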

Additional observations from a re-analysis of the deposited data

Results flagged for a closer look

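AID-null clones 1, 2 and 3 listed 555, 577 and 648 positions on chromosome Y, which no comparison above used, against 43 to 48 in the wildtype clones. Chromosome 1 of AID-null clone 1 had 1.22 times the share of coverage of the median of the other clones, at 6.64% against 5.41% to 5.46%. Without chromosome 1 the model called 10 tiles and 9 promoters.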

How the results depend on the processing

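The count of tiles called, 8, was 0 with limma on log2 ratios, 0 with edgeR and 0 with clone number as a replicate block, and 2 to 2305 when 1 clone was left out. Promoters called, 9, became 1 within the promoter sequence alone, 0 with limma, 0 with the replicate block and 4 to 65 with 1 clone left out. The 91 promoters past the adjusted p alone became 6, 0 and 0 under the same 3 settings and 7 to 1563 with 1 clone left out. The largest of each of these counts came without AID-null clone 3. Clone numbers gave no sign of pairing: deviations of same-numbered clones correlated at 0.0154, −0.0182 and 0.0488. With the block 16304 tiles and 1686 promoters had an unadjusted p under 0.05. Mean methylation of AID-null minus wildtype clones, 1.43 points, ran from −0.272 without AID-null clone 3 to 2.87 without AID-null clone 2, and was −0.392 over pooled reads. In tiles with fewer than 10 CpGs the difference of 3.52 points ran from −0.0622 without AID-null clone 3 to 6.55 without AID-null clone 2. In tiles with 10 to 29 CpGs −0.783 points became 0.493 without AID-null clone 2 and −2.43 without AID-null clone 3. With 3 classes of equal size by CpG number, the middle class differed by 2.81 points and the densest by 0.00853. Of 20 named promoters, all 176 values under the alternatives kept their sign. Most of these signs were fixed in advance. The clones of the genotypes did not overlap at these promoters, so leaving 1 clone out could not change a sign. The limma and block settings use the same difference of means. Only the values at a coverage of at least 30 could have changed sign. All 9 called promoters missed the adjusted p with limma and with the block, and the 8 that could be measured at a coverage of at least 30 passed it there. Gm51681 had too few positions at that coverage. The causes were not tested.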
